A study of Mus musculus with 4 samples.

Results

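The genes described here encode PU.1 and 9 other transcription factors of the ETS family: Sfpi1 (the files' symbol for the PU.1 gene, now Spi1), Spib, Ets1, Ets2, Fli1, Erg, Elf1, Elf4, Gabpa and Etv6. They were taken by symbol from the table of 23285 genes, where all 10 were found, and all 10 were among the 10224 genes abundant enough to be tested. RNA was sequenced from mouse thymocytes sorted as DN3 cells, a stage without surface CD4 and CD8 at which cells rearrange their T cell receptor beta genes. The cells had developed from fetal liver cells of wild type (WT) donors or of donors carrying the Gata3(g/g) genotype, which the labels call hypomorphic, in irradiated recipients, and were collected 16 weeks after transfer. All 4 samples are labelled C57BL/6, with 2 libraries per genotype. The replicates 1 share sequencing run 1 and the replicates 2 share run 2, so each run holds 1 WT and 1 Gata3(g/g) library. The labels do not say whether the replicates came from separate mice, so the p-values measure only the spread between these samples, which may be technical. The sources used here do not give the donor age, the genotype of the recipients or any step that separated donor from recipient cells.

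ETS factors share a winged helix-turn-helix DNA-binding domain that recognises sites with a GGAA core, and differ in the bases they prefer around it and in their partner proteins. PU.1 directs myeloid and B cell development, is present in the earliest thymic progenitors, and is normally switched off as T cell precursors commit before and during the DN3 stage. ETS1, FLI1, ELF1, ELF4 and GABPA act in T-lineage cells, in which ETS sites lie in many T cell enhancers and promoters, often beside RUNX sites. In early thymocytes GATA3 and PU.1 are known to oppose each other's programmes.

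Per library, 14331705 to 26901913 fragments were counted in genes. Levels are given as FPKM, fragments scaled by transcript length and by library depth, which can be compared between genes because they are per length. Genotype differences are log2 fold changes with standard errors (SE) from edgeR's quasi-likelihood test with the run in the model, adjusted over all 10224 genes by the Benjamini-Hochberg method, and a positive value means higher in Gata3(g/g). Gata3 itself measured 62.4 and 58.5 FPKM in WT, and the libraries labelled Gata3(g/g) had 120 and 96.1 FPKM (log2 fold change 0.83 ± 0.146, SE, edgeR adjusted p = 0.00165). The RNA of the targeted gene was thus not reduced in the libraries with the hypomorphic label, the deposited value does not tell the altered allele's exons apart, and every direction below rests on the labels. Each of the 10 DN3 markers examined was at 13.4 FPKM or more, with Cd3e at 379 FPKM or more in every library, while Cd4 stayed at 0.492 FPKM or less. Of the 10, Il2ra and Dtx1 were higher in Gata3(g/g) and 8 did not pass, against 3.9% of all tested genes called higher. The log2 fold changes were 0.98 ± 0.181 for Il2ra and 0.98 ± 0.128 for Dtx1 (SE, edgeR adjusted p = 0.00262 and 0.000109). The CD8 genes, of 6 later thymocyte markers, were both higher in Gata3(g/g). Cd8b1 measured 3.63 and 1.11 FPKM in WT and 7.61 and 7.22 FPKM in Gata3(g/g) (1.77 ± 0.308, SE, edgeR adjusted p = 0.00135). Cd8a measured 0.674 and 0.592 FPKM in WT and 1.71 and 1.37 FPKM in Gata3(g/g) (1.28 ± 0.286, SE, edgeR adjusted p = 0.011). The mean of Cd8a reached 1 FPKM, the level needed for a test, only through the Gata3(g/g) libraries. In run 2 the summed level of 10 erythroid and megakaryocyte markers was 330 and 335 FPKM, against 1.11 and 2.7 FPKM in run 1.

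For 7 of the 10 genes the RefSeq promoter table (GRCm38.p6, the mm10 build) holds an entry, and for Sfpi1, Ets1 and Fli1 it does not. The 250 bases before the start are shown for Spib, the closest relative of PU.1, and for Erg, Elf4 and Etv6, the 3 members that were higher in run 2. Where a gene has several starts, the one farthest upstream is shown. GGAA cores on either strand (TTCC on the other strand) are in capitals.
Spib (chr7:44532072-44532321, minus strand): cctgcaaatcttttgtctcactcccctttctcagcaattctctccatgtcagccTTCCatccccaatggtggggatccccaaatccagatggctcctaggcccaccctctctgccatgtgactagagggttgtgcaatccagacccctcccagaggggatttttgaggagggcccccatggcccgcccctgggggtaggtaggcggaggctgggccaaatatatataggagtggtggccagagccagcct
Erg (chr16:95586594-95586843, minus strand): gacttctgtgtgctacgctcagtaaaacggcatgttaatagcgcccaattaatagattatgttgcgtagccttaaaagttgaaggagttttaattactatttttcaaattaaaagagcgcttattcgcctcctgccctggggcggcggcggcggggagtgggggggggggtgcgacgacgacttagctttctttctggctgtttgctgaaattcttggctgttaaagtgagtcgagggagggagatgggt
Elf4 (chrX:48463133-48463382, minus strand): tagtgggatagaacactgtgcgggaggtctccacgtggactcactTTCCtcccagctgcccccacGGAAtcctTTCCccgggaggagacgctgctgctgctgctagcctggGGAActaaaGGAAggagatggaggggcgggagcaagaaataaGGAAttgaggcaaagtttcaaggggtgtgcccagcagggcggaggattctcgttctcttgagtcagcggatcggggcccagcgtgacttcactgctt
Etv6 (chr6:134035450-134035699, plus strand): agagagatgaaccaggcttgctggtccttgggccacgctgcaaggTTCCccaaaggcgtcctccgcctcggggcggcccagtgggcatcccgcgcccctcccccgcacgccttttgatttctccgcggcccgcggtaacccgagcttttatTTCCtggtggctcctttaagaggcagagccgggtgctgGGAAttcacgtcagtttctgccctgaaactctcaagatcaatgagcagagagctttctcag
These windows held 1 GGAA core for Spib, 0 for Erg, 6 for Elf4 and 3 for Etv6. The windows before the other Erg starts, which are not shown, held 4 and 2 cores, and that before the other Elf4 start held 2. The Erg span the authors deposited ended at 95530365, directly beside the window with 4 cores. Of 32851 promoter windows of this length, 93.4% hold at least 1 such core, and the median is 3. Longer words were searched on both strands: CCGGAAG, a common ETS site, GAGGAAG, a site preferred by PU.1, and the GATA words AGATAA and TGATAA. They are found in 6.91%, 10.6%, 9.99% and 7.94% of all windows, and none of the 4 windows shown held any of them. The first 2 words both contain the GGAA core. The 250 bases before the Gabpa start held 1 match each to CCGGAAG and GAGGAAG, and the window before the most downstream Erg start held 1 AGATAA. Such matches describe the letters of these windows only, since binding was not measured.

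In order of mean FPKM over the 4 libraries, Fli1 (30.0), Ets1 (29.3) and Elf4 (24.5) led, followed by Elf1 (17.3), Ets2 (12.2), Gabpa (11.8), Etv6 (8.87), Erg (4.75), Spib (3.11) and Sfpi1 (3.11). Neighbours in this order were separated in all 4 libraries at 2 places only, between Elf1 and Ets2 and between Etv6 and Erg. The other 7 neighbouring pairs overlapped. In the WT libraries alone, Sfpi1 was the lowest of the 10. The 10 genes summed to 140 and 144 FPKM in WT and to 148 FPKM in each Gata3(g/g) library.

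**Figure D1:**
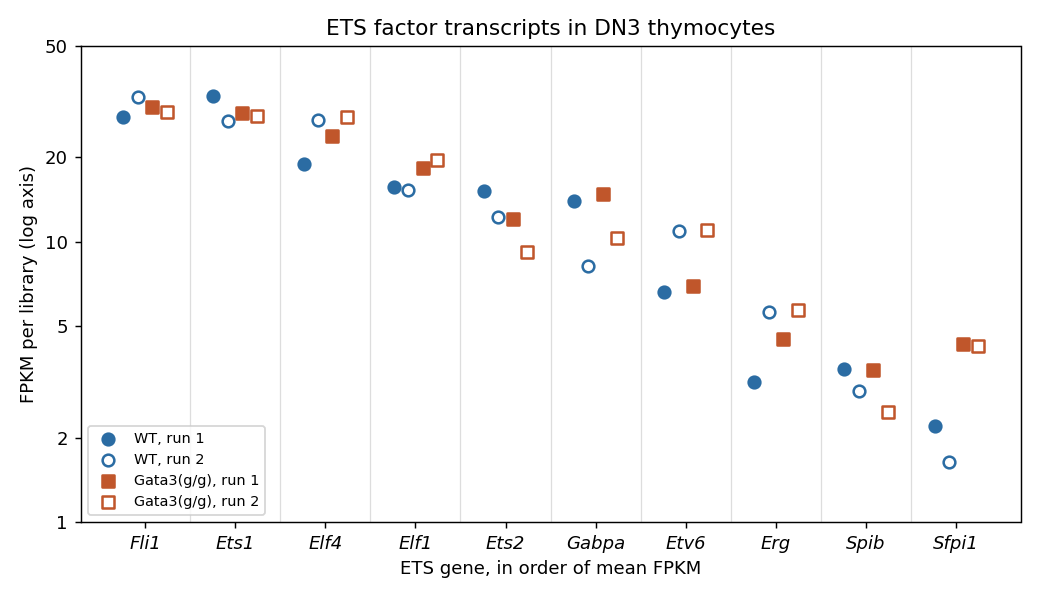
FPKM (log axis) of the 10 ETS genes in each of the 4 libraries, with WT as circles, Gata3(g/g) as squares, run 1 filled and run 2 open. Sfpi1 is at 2.20 and 1.63 FPKM in WT and at 4.34 and 4.25 FPKM in Gata3(g/g), while Etv6 and Erg are higher in the run 2 library of each genotype.

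Among the 10 genes, Sfpi1 was higher in the libraries labelled Gata3(g/g), none was lower, and 9 did not pass the test. Over all tested genes 3.9% were called higher and 2.99% lower (399 and 306 genes), and with total fragments as the only scaling 464 were higher and 210 lower. The median log2 fold change of the 10 genes was 0.11, against 0.01 over all tested genes, and the median absolute value was 0.20 against 0.18. An unadjusted p under 0.05 was found for 3 of the 10 (Sfpi1, Ets2 and Elf1), against 20.9% of all tested genes. The same 3 genes had WT and Gata3(g/g) libraries that did not overlap in FPKM, against 29.0% of all tested genes. Both counts are close to the background and are not a result about the ETS genes as a set. Without the run in the model 0 of the 10224 genes passed by edgeR (0.0%, with 393 at an unadjusted p under 0.05).

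Sfpi1 encodes PU.1 and lies on chromosome 2 from 91082390 to 91115756 in GRCm38 (GENCODE, plus strand), with no other annotated gene across it. It was counted in 102 and 52 fragments in WT replicates 1 and 2 and in 268 and 174 fragments in Gata3(g/g) replicates 1 and 2. These correspond to 2.20 and 1.63 FPKM (1.92 ± 0.404, SD, n = 2) and to 4.34 and 4.25 FPKM (4.30 ± 0.0624, SD, n = 2). Both libraries labelled Gata3(g/g) were above both WT libraries, and the mean FPKM was 2.24 times that of WT. The log2 fold change was 1.17 ± 0.276 (SE, edgeR adjusted p = 0.0159), with differences in log2 CPM (counts scaled to library depth) of 0.98 in run 1 and 1.34 in run 2. This was the 388th smallest p of the 10224 genes. In bulk RNA, more cells with Sfpi1 transcripts and more transcripts per cell cannot be told apart. The call was lost with DESeq2 (adjusted p = 0.0780), with limma on log2(FPKM + 1) (adjusted p = 0.116) and without the run in the model (edgeR adjusted p = 0.972), while the log2 fold change stayed between 0.87 and 1.37 in every alternative tried. In the authors' deposited table the q-value of Sfpi1 was 0.0526, and none of the 10 genes was called there.

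Markers of other cells that carry PU.1 were examined beside this result. Of 11 myeloid markers, 7 (Itgam, Csf1r, Csf3r, Cd14, Mpo, Elane and Emr1) were below 1 FPKM in every library, at most 0.288 FPKM. The 11 summed to 14.3 and 56.4 FPKM in WT and to 22.3 and 66.2 FPKM in Gata3(g/g), and the granulocyte genes S100a8 and S100a9 made up much of the run 2 sums, S100a8 alone at 33.3 and 40.2 FPKM. Of the 4 tested myeloid markers, the other 3 than Lyz2 had negative log2 fold changes and did not pass. They were −0.80 ± 0.543 (SE) for S100a9, −0.43 ± 0.322 for Cd68 and −0.08 ± 0.559 for S100a8, and the list median was −0.26. The sign was opposite in the runs for Cd68 (0.16 in run 1, −1.03 in run 2) and for S100a8 (−1.96 and 0.21). In run 1, S100a8 and S100a9 each had 6 fragments in WT and 0 in Gata3(g/g). Lyz2, the lysozyme gene, rose (1.27 ± 0.199, SE), and without the run in the model its log2 fold change was 1.92 without WT replicate 1 and 0.71 without WT replicate 2. Among B-lineage markers, Cd79a, Ebf1, Pax5 and Ms4a1 were each at 0.196 FPKM or less in every library. Cd79b measured 29.8 and 29.1 FPKM in WT and 37.0 and 29.6 FPKM in Gata3(g/g), and Vpreb1 1.30 and 0.979 FPKM against 2.21 and 2.16 FPKM, and neither passed (edgeR adjusted p = 0.528 and 0.267). The 11 dendritic and plasmacytoid markers summed to 111 and 124 FPKM in WT and to 102 and 96.4 FPKM in Gata3(g/g), mostly from Bst2 and Ccr9, and Klk1 was at 0 in all 4 libraries. Of the 3 tested, Bst2 (−0.28) and Ccr9 (−0.29) had negative log2 fold changes and Tcf4 (0.32) a positive one, and none passed. Itgax, the CD11c gene of dendritic cells, was higher in Gata3(g/g) at low levels, with 0.151 and 0.142 FPKM in WT and 0.547 and 0.447 FPKM in Gata3(g/g). It was under the filter, and in the fit with no filter its log2 fold change was 1.76 ± 0.439 (SE, edgeR adjusted p = 0.00267). In that fit Flt3, Zbtb46, Xcr1 and Siglech were positive and Batf3 and Cd209a negative, and none of these passed. Sfpi1 had an edgeR adjusted p of 0.000274 there, against 0.0159 in the main fit. The p-values with no filter therefore cannot be set beside those of the main fit. Of 7 mast and basophil markers only Cpa3 was above 1 FPKM, at 43.5 and 50 FPKM in WT and 2.73 and 1.55 FPKM in Gata3(g/g), and all 8 natural killer and innate lymphoid markers were below 1 FPKM. The part of these cells in the Sfpi1 result was not tested.

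Spib encodes Spi-B, the nearest relative of PU.1, which acts in B cells and plasmacytoid dendritic cells and is present in early thymocytes. It lies on chromosome 7 from 44525993 to 44532071 (minus strand), and its promoter window is the first of those shown. Spib measured 3.53 and 2.94 FPKM in WT and 3.49 and 2.48 FPKM in Gata3(g/g). The genotypes overlapped, and the log2 fold change was −0.12 ± 0.194 (SE, edgeR adjusted p = 0.775). The ratio of Sfpi1 to Spib FPKM was 0.625 and 0.555 in the WT libraries and 1.24 and 1.72 in the Gata3(g/g) libraries. Spib was thus the more abundant of the pair in both WT libraries and Sfpi1 in both Gata3(g/g) libraries. Spic, the other gene of this subfamily, was at most 0.19 FPKM.

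The PU.1 gene remained a small part of ETS transcripts in either genotype. Over 26 ETS family genes, which summed to between 210 and 247 FPKM, Sfpi1 made up 1.05% and 0.663% in WT and 1.93% and 1.75% in Gata3(g/g). Ets1, Fli1, Elf2, Elf4 and Elk4, the 5 most abundant of the 26, made up between 61.7% and 68.6%. No interval is given for these shares because FPKM are not counts.

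Ets1 and Fli1 are neighbours on chromosome 9, 93.4 kb apart, at 32636221 to 32757820 (plus strand) and 32422204 to 32542861 (minus strand). ETS1 is needed for T cell and thymocyte survival and for the pre-T cell receptor checkpoint, and FLI1 is a factor of blood stem cells, megakaryocytes and early lymphocytes. Ets1 measured 33.1 and 27.0 FPKM in WT and 28.9 and 28.1 FPKM in Gata3(g/g), a log2 fold change of −0.08 ± 0.125 (SE, edgeR adjusted p = 0.774). Fli1 measured 27.8 and 33.0 FPKM in WT and 30.3 and 29.1 FPKM in Gata3(g/g), a log2 fold change of −0.02 ± 0.128 (SE, edgeR adjusted p = 0.941). For both genes the WT libraries spanned the Gata3(g/g) libraries, and the sign of the difference was opposite in the runs. The difference was −0.18 in run 1 and 0.02 in run 2 for Ets1, and 0.14 and −0.19 for Fli1. The sign of Fli1 also turned when only total fragments were used for scaling, to 0.025.

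Ets2 and Erg are neighbours on chromosome 16, 115.5 kb apart, at 95702075 to 95721051 (plus strand) and 95359169 to 95586593 (minus strand). ETS2 responds to RAS and MAP kinase signalling, and ERG is a factor of blood stem cells and endothelium that is lost as T cells mature. Ets2 measured 15.2 and 12.3 FPKM in WT and 12.1 and 9.24 FPKM in Gata3(g/g). It was lower in Gata3(g/g) in both runs, by −0.31 in run 1 and −0.42 in run 2, but the lower WT and the higher Gata3(g/g) library nearly met. The log2 fold change of −0.36 ± 0.133 (SE) did not pass (edgeR adjusted p = 0.117). Erg measured 3.16 and 5.61 FPKM in WT and 4.50 and 5.73 FPKM in Gata3(g/g), a log2 fold change of 0.27 ± 0.187 (SE, edgeR adjusted p = 0.441). Its difference came from run 1 (0.53, against 0.02 in run 2), where WT replicate 1 was the lowest library. Of 10 endothelial and stromal markers, 8 were below 1 FPKM in every library, among them the endothelial genes Cdh5 and Kdr. The 10 summed to 32.8 and 25.1 FPKM in WT and to 34 and 32.6 FPKM in Gata3(g/g), mostly from Pecam1 and Epcam. Pecam1, also an endothelial gene, measured 19.7 and 16.9 FPKM in WT and 25.0 and 21.7 FPKM in Gata3(g/g) (0.36 ± 0.124, SE, edgeR adjusted p = 0.0992). Epcam measured 12.7 and 7.13 FPKM in WT and 8.41 and 9.69 FPKM in Gata3(g/g) (−0.09 ± 0.179, SE, edgeR adjusted p = 0.841).

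Elf1 and Elf4 encode related factors of lymphocytes. ELF1 binds enhancers of T cell genes such as those of CD25 and of the CD3 zeta chain, and ELF4, also called MEF, restrains proliferation of CD8 T cells. Elf1 (chromosome 14 from 79481194 to 79582494, plus strand) measured 15.7 and 15.3 FPKM in WT and 18.4 and 19.7 FPKM in Gata3(g/g). Both libraries labelled Gata3(g/g) were above both WT libraries, with differences of 0.25 in run 1 and 0.35 in run 2. The log2 fold change of 0.30 ± 0.123 (SE) did not pass (edgeR adjusted p = 0.165). The first exons of Elf1 overlap exons of the opposite gene Wbp4, which had a log2 fold change of 0.29 ± 0.158 (SE, edgeR adjusted p = 0.306), and without a stated strand setting fragments of the overlap cannot be told apart. Elf4 (chromosome X from 48411046 to 48463132, minus strand) measured 19.0 and 27.1 FPKM in WT and 23.8 and 27.9 FPKM in Gata3(g/g). Its libraries overlapped, and the log2 fold change was 0.19 ± 0.129 (SE, edgeR adjusted p = 0.451). The runs differed, at 0.34 in the first and 0.03 in the other.

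Gabpa encodes the DNA-binding subunit of GABP, which regulates genes of mitochondria and of the interleukin 7 receptor, and Etv6 encodes TEL, a repressor needed in blood stem cells. Gabpa (chromosome 16 from 84834925 to 84863779, plus strand) measured 13.9 and 8.22 FPKM in WT and 14.8 and 10.3 FPKM in Gata3(g/g), a log2 fold change of 0.21 ± 0.129 (SE, edgeR adjusted p = 0.386). The run 1 libraries were high and the run 2 libraries low in both genotypes. Its exons overlap those of the opposite gene Atp5j, whose log2 fold change was −0.30 ± 0.133 (SE, edgeR adjusted p = 0.210). Etv6 (chromosome 6 from 134035700 to 134270158, plus strand) measured 6.62 and 10.9 FPKM in WT and 6.95 and 10.98 FPKM in Gata3(g/g). The log2 fold change was 0.04 ± 0.129 (SE, edgeR adjusted p = 0.894), and each run 2 library was above each run 1 library. An antisense transcript, Gm17089, overlaps an Etv6 exon.

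**Figure D2:**
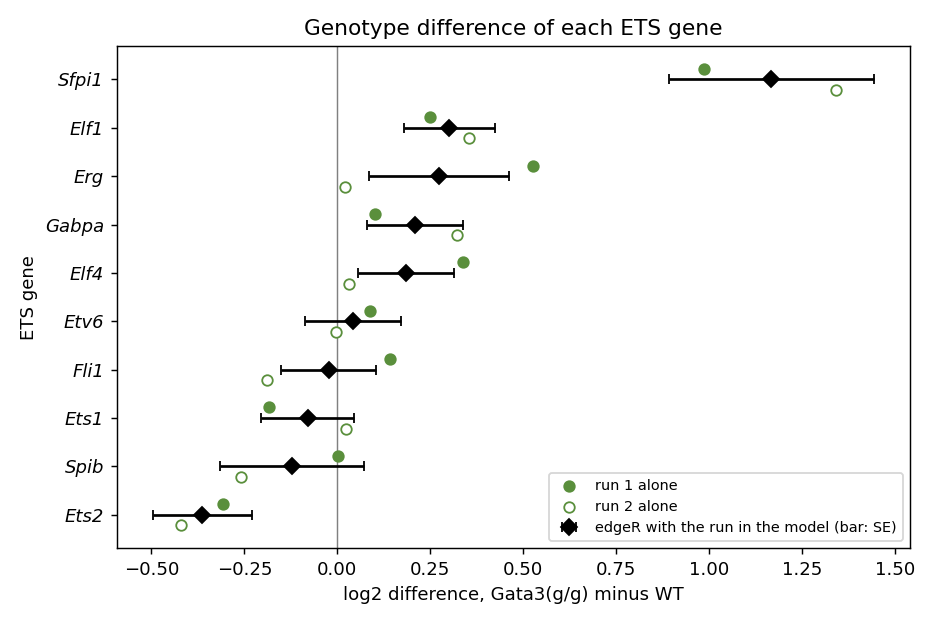
Log2 difference between Gata3(g/g) and WT for each ETS gene: diamonds are edgeR values with SE bars and circles are the differences in log2 CPM within run 1 (filled) and run 2 (open). Sfpi1 lies at 1.17 with both runs near or above 0.98, and the other 9 genes lie between −0.36 and 0.30.

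Differences between the sequencing runs, tested in the same model, passed for 4 of the 10 ETS genes. Erg, Elf4 and Etv6 were higher in run 2, where 17.5% of all tested genes were called higher, and Gabpa was lower, where 17.3% were called lower. The log2 difference of run 2 against run 1 was 0.72 ± 0.130 (SE, edgeR adjusted p = 0.00054) for Etv6 and −0.61 ± 0.129 (SE, adjusted p = 0.00174) for Gabpa. It was 0.60 ± 0.188 for Erg (SE, adjusted p = 0.0210) and 0.40 ± 0.129 for Elf4 (SE, adjusted p = 0.0251). For Etv6 the run difference in log2 CPM was 0.76 in WT and 0.67 in Gata3(g/g), and for Erg 0.86 and 0.35. For 7 of the 10 genes the run difference was larger in size than the genotype difference, the exceptions being Sfpi1, Ets2 and Elf1. The median absolute run difference was 0.34 for the 10 genes and 0.31 over all tested genes. Sfpi1 differed by −0.20 ± 0.273 (SE, adjusted p = 0.608) between the runs. Without the genotype in the model, 1 of the 10 passed between the runs, and 751 genes in place of 3560 did so over all tested genes. The erythroid markers and S100a8 moved with the runs as well, and their part in the run differences was not tested.

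**Figure D3:**
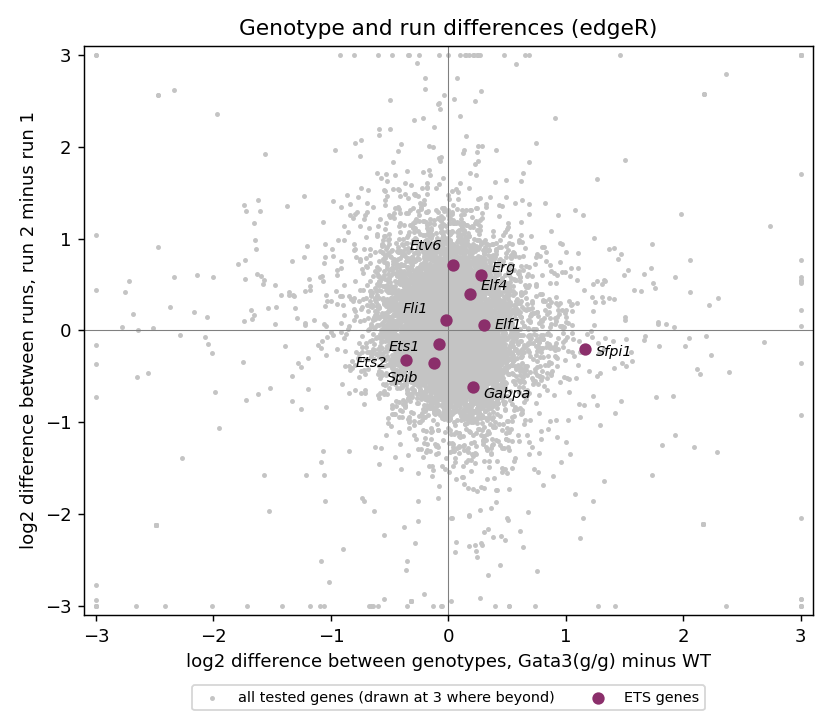
Each point is a tested gene, with the genotype difference (Gata3(g/g) minus WT, log2) on the x axis and the run difference (run 2 minus run 1, log2) on the y axis, values beyond 3 in size drawn at 3, and the ETS genes named. Sfpi1 lies at 1.17 and −0.20, Etv6 at 0.04 and 0.72 and Gabpa at 0.21 and −0.61.

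Of 16 other ETS family genes, 5 were abundant enough to be tested and 0 passed. Elf2, a relative of Elf1, measured 30.3 and 26.6 FPKM in WT and 32.7 and 26.8 FPKM in Gata3(g/g). Elk4, a partner of serum response factor, measured 21.1 and 55.5 FPKM in WT and 22.9 and 45.8 FPKM in Gata3(g/g), high in run 2 and low in run 1. The largest genotype difference among the 5 was that of the ternary complex repressor gene Elk3, at 0.38 ± 0.140 (SE, edgeR adjusted p = 0.120). Etv5, a MAP kinase responsive factor gene of the PEA3 group, had a mean FPKM below 1 and was not tested in the main fit. It stood at 1.14 and 1.30 FPKM in WT and at 0.49 and 0.44 FPKM in Gata3(g/g), from 165, 130, 95 and 57 fragments. In the fit with no filter on low values it fell by 1.37 ± 0.269 on the log2 scale (SE, edgeR adjusted p = 2.72e-05), and it is named here after its values were seen. That p-value cannot be set beside those of the main fit, since Sfpi1 had an edgeR adjusted p of 0.000274 with no filter. Of the other 10 genes under the filter, Erf was at most 1.05 FPKM and the remaining 9 at most 0.280 FPKM.

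The lists that follow, like the choice of the 10 genes, were drawn up with earlier results of these data known, so their counts describe the data and are no independent evidence. Of 14 tested ETS partners and inhibitors, 1 was lower and 13 did not pass. By comparison, 2.99% of all tested genes were called lower. The median log2 fold change of the 14 was 0.07, against 0.01 over all tested genes. Tle4, which encodes a Groucho family corepressor, fell, with 5.14 and 6.80 FPKM in WT against 3.31 and 4.22 FPKM in Gata3(g/g) (−0.66 ± 0.137, SE, edgeR adjusted p = 0.00707), with −0.62 and −0.69 in the separate runs. Without WT replicate 2 and without the run in the model it stood at −0.43. Runx1, the RUNX partner of ETS1, measured 60.7 and 79.2 FPKM in WT and 69.1 and 79.3 FPKM in Gata3(g/g), and Cbfb 72.0, 37.6, 73.8 and 47.8 FPKM in the same order. The GABPA partner gene Gabpb1 was at 21.0 and 19.5 FPKM in WT and at 20.6 and 20.8 FPKM in Gata3(g/g). Of the interferon regulatory factors that bind DNA with PU.1 or Spi-B, Irf4 was at most 0.444 FPKM. Irf8 measured 2.76 and 1.90 FPKM in WT and 1.87 and 1.02 FPKM in Gata3(g/g) and did not pass (−0.71 ± 0.242, SE, edgeR adjusted p = 0.0935). With no filter on low values it passed as lower (edgeR adjusted p = 0.0389), a p-value that cannot be set beside those of the main fit.

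Of 20 genes that PU.1 activates in myeloid cells, 10 were tested, 3 rose and 7 did not pass. By comparison, 3.9% of all tested genes were called higher. The median log2 fold change of the 10 listed genes was 0.33, against 0.01 over all tested genes. Ctss, which encodes the lysosomal protease cathepsin S, rose, with 1.78 and 0.956 FPKM in WT against 6.14 and 4.03 FPKM in Gata3(g/g) (1.91 ± 0.278, SE, edgeR adjusted p = 0.000301). Lyz2 rose from 9.93 and 4.20 FPKM to 18.7 and 13.6 FPKM, and Ncf1, a subunit gene of the phagocyte oxidase, from 2.23 and 2.68 to 4.51 and 5.04 FPKM (0.97 ± 0.183, SE). For these 3 genes every Gata3(g/g) library was above every WT library. The genotypes did not overlap, in either direction, for 29.0% of all tested genes. Tyrobp, an adaptor gene of myeloid and natural killer cells, measured 5.64 and 4.53 FPKM in WT and 8.74 and 5.32 FPKM in Gata3(g/g) and did not pass (adjusted p = 0.451). Values were negative for 4 of the 10 tested genes, and none of the 4 passed. They were −0.74 ± 0.415 (SE) for Fcer1g, −0.72 ± 0.273 for Cebpb, −0.43 ± 0.322 for Cd68 and −0.13 ± 0.222 for Csf2ra, with edgeR adjusted p of 0.333, 0.131, 0.485 and 0.796. The other 10 genes, among them Csf1r, Csf3r, Itgam, Cybb and Cebpa, were below 1 FPKM in every library. Lyz2 is also on the myeloid marker list given beside Sfpi1.

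Of 15 genes that early T progenitors express together with PU.1 and that are normally silenced at commitment, 8 were tested, 4 rose and 4 did not pass. By comparison, 3.9% of all tested genes were called higher. All 8 tested genes of the list had positive log2 differences in CPM in both runs. Their median log2 fold change was 0.77, against 0.01 over all tested genes. The share of all tested genes with the same sign in both runs was not counted. Mef2c reached the filter only through its Gata3(g/g) libraries, and 7 of the listed genes were under it. In the fit with no filter Lmo2, Flt3, Hoxa9 and Meis1 were positive and Gfi1b, Tal1 and Zbtb16 negative, and none of these passed. In FPKM the difference of Bcl11a was opposite in run 2. Mef2c, a factor gene of lymphoid and myeloid progenitors, measured 0.42 and 0.304 FPKM in WT and 1.56 and 1.76 FPKM in Gata3(g/g). Cd44, an adhesion receptor gene lost on the way to DN3, measured 1.16 and 1.08 FPKM in WT and 2.42 and 3.12 FPKM in Gata3(g/g). Both genes were higher in each Gata3(g/g) library than in either WT library. The genotypes did not overlap, in either direction, for 29.0% of all tested genes. Mef2c rose by 2.19 ± 0.242 (SE), Cd44 by 1.23 ± 0.197, Nfe2 by 0.87 ± 0.145 and Id2 by 0.77 ± 0.232, with adjusted p of 1.8e-05, 0.000709, 0.00108 and 0.0487 by edgeR. With limma on log2(FPKM + 1), which understates changes of low genes, Mef2c stood at 0.97 and Cd44 at 0.82, and neither passed (adjusted p = 0.129 and 0.156). With limma on log2(FPKM + 0.1) they stood at 1.94 and 1.22, and again neither passed (adjusted p = 0.172 and 0.144). The call of Id2 was lost with DESeq2 (adjusted p = 0.118) and with the FPKM filter raised to 5 (adjusted p = 0.0779 by edgeR). Id2, an inhibitor of E proteins, differed by 0.20 in run 1 and 1.48 in run 2, and without WT replicate 2 and without the run in the model its log2 fold change was −0.13. Lyl1 measured 1.91 and 2.1 FPKM in WT and 3.16 and 2.83 FPKM in Gata3(g/g) (0.59 ± 0.259, SE, edgeR adjusted p = 0.205). Bcl11a, a PU.1 partner gene of lymphoid progenitors, measured 1.48 and 3.75 FPKM in WT and 1.97 and 2.98 FPKM in Gata3(g/g), so that its run difference exceeded its genotype difference. Kit, the receptor gene of early progenitors, measured 5.18 and 5.42 FPKM in WT and 5.34 and 6.90 FPKM in Gata3(g/g) (adjusted p = 0.46).

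Of 18 T-lineage genes with known ETS sites or ETS dependence, 17 were tested, 3 rose and 14 did not pass. By comparison, 3.9% of all tested genes were called higher. The median log2 fold change of the 17 was 0.18, against 0.01 over all tested genes. Il2ra, which encodes CD25 and has an ELF1 site in its enhancer, rose from 277 and 261 FPKM to 569 and 492 FPKM. Il2ra is also among the DN3 markers given above. Il7r, the interleukin 7 receptor gene regulated by GABP, rose from 28.5 and 32.8 to 47.8 and 51.5 FPKM (0.70 ± 0.123, SE), and Themis from 38.8 and 29.8 to 59.9 and 57.9 FPKM (0.80 ± 0.131, SE). The gene of the CD3 zeta chain, Cd247, measured 79.6 and 82.4 FPKM in WT and 66.3 and 65.6 FPKM in Gata3(g/g) and did not pass (−0.29 ± 0.122, SE, edgeR adjusted p = 0.174). Cd3g, the most abundant of the list, was at 1187 and 1253 FPKM in WT and at 1096 and 1210 FPKM in Gata3(g/g). Klf4, a target of ELF4, was at 16.7 and 10 FPKM in the run 1 libraries and at 0.29 and 0.28 FPKM in the run 2 libraries.

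**Figure D4:**
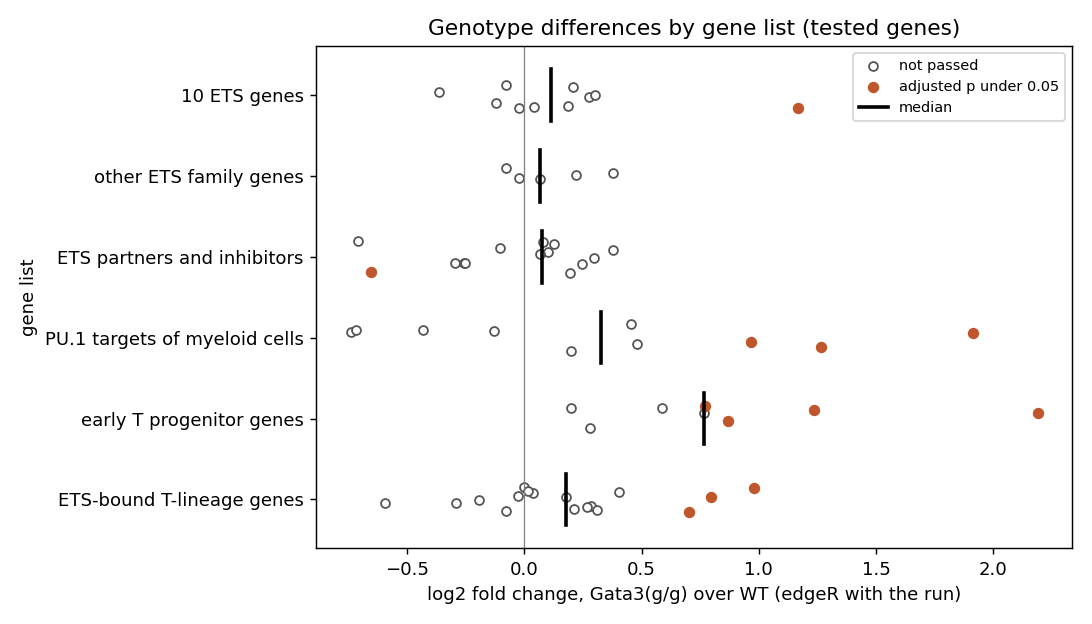
Log2 fold change (Gata3(g/g) over WT, edgeR with the run) of each tested gene in 6 lists, with genes at an adjusted p under 0.05 filled, others open and the list median as a bar. Of the 10 ETS genes only Sfpi1 is filled, and the medians run from 0.07 for the other ETS family genes to 0.77 for the early T progenitor genes.

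By Euclidean distance between mean-centred log2 CPM over the 4 libraries, the 5 genes nearest to Sfpi1 were Oas1b, Prr13, Ly6d, Mira and Fam134b, at distances of 0.15 to 0.186. Each of the 5 was higher in both Gata3(g/g) libraries, with log2 fold changes of 1.06 to 1.28. Ly6d, a surface antigen gene, measured 290 and 251 FPKM in WT and 608 and 649 FPKM in Gata3(g/g). The 5 nearest to Ets2, the gene with the next smallest p, were Abcb1b, Fdxr, Lonp1, Ippk and Gapdh, at 0.0273 to 0.0511, and none of them passed the genotype test. The neighbours were picked by their values in these same 4 libraries. A direction and size near those of Sfpi1 or Ets2 therefore follow from the choice and add no evidence. With 4 libraries such likeness rests on few points and is a description only.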

How the data were processed

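RNA was sequenced from DN3 thymocytes of 4 samples, 2 WT and 2 Gata3(g/g). The build mm10 and the tools TopHat2 2.0.8b, Bowtie2 2.1.0 and Cuffdiff 2.1.1 are those the authors list, per the submitters' processing notes. The sources used here give neither the gene annotation nor the strand setting. Per the file headers, the authors deposited an estimated count of fragments and an FPKM value per gene and library, scaled fragments (a signal not used here), and a comparison table with log2 fold changes, p-values and q-values.

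Estimated counts (97.66% to 98.86% within 0.01 of a whole number) were rounded. Of 23285 genes, 3 marked as too deep were left out, and the 10224 with a mean FPKM of at least 1 were tested with edgeR 4.0.16 (R 4.3.3, TMM, quasi-likelihood, two-sided) on the sequencing run and the genotype, with 1 residual degree of freedom, so that small p-values lean on the spread pooled over genes. The SE is the log2 fold change without shrinkage divided by the square root of F. Replicate numbers pair the samples because the sequence identifiers in the labels place replicates 1 and replicates 2 in separate runs. The run differences in WT and in Gata3(g/g) correlated across genes at 0.754 (Pearson, genes not being independent). Fits without the block, with limma 3.58.1, with DESeq2 1.42.0, other scalings and filters, and without each library were alternatives. The 3 fragments below which a gene counts as undetected equal between 0.112 and 0.209 CPM, for counting error only.

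The 10 genes and all lists were chosen with earlier results of these data known. Named genes were the 10 members, in each list those past the threshold (at most 6) and the 2 most abundant, the 5 genes most like Sfpi1 and Ets2, and the leading or absent markers; others named were chosen after their values were seen. Gene positions are those of GENCODE M21.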

Additional observations from a re-analysis of the deposited data

How the results depend on the processing

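With no replicate block, edgeR called 0 genes over all tested genes in place of 705, 0 members higher and 0 of the genes in the 5 related lists in place of 11, and Sfpi1 stood at 1.16. DESeq2 with the block called 417 genes and 0 members higher (Sfpi1 1.17). Limma with the block called 18 genes at a pseudocount of 1 and 42 at 0.1, with 0 members higher and 0 and 1 of the related genes (Sfpi1 0.87 and 1.14). With the FPKM filter raised to 5, where Sfpi1 is not tested, 348 genes, 0 members and 5 related genes were called. With total fragments only, 464 of 674 calls were higher (68.8% against 56.6% in the main model), the median of all genes was 0.06 in place of 0.01, and Fli1 turned to 0.025. With the run alone in the model, 751 genes and 1 of the 10 members passed between the runs. Without each library in turn and without the block, which leaves the runs unequally shared, between 1 and 11 genes (6 without Gata3(g/g) replicate 1), 0 members and 0 related genes were called, and Sfpi1 ranged from 0.98 to 1.37 (1.18 without Gata3(g/g) replicate 2). Over the same fits Ets1 ranged from −0.20 to 0.032, Erg from −0.16 to 0.71, Elf4 from −0.10 to 0.46, Etv6 from −0.34 to 0.46 (−0.31 without WT replicate 1), Fli1 from −0.18 to 0.12, Gabpa from −0.13 to 0.58 (−0.087 without Gata3(g/g) replicate 1), Spib from −0.38 to 0.11, Ets2 from −0.56 to −0.18, Lyz2 from 0.71 to 1.92 and Id2 from −0.13 to 1.90. The members lower (0), the members whose genotypes did not overlap (3, also in log2 CPM), and the calls of Sfpi1 with RLE size factors, total fragments or no filter did not change. The causes were not tested. With 52 to 268 fragments, Sfpi1 is the least deeply counted of the 10 genes.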
